A study of Bos taurus with 16 samples.

Results

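The 4 casein genes of cattle, CSN1S1, CSN1S2, CSN2 and CSN3, were examined in mammary gland biopsies of 16 heifers. They encode alpha-S1-, alpha-S2-, beta- and kappa-casein. Each gene was taken from the probe sets to which the annotation of the array gives exactly 1 gene symbol. Each has 1 such probe set, so the 4 casein probe sets stand among 26773 probe sets and 18435 genes with a symbol, and no choice between probe sets was needed.

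Caseins are the main proteins of cow's milk. Alpha-S1-, alpha-S2- and beta-casein carry phosphorylated serines that bind calcium phosphate, and kappa-casein sits on the surface of the casein micelle and keeps it in solution. The genes are transcribed in the luminal secretory cells of the mammary gland. There prolactin acts through the kinase JAK2 and the transcription factors STAT5A and STAT5B, together with glucocorticoids and insulin.

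A starter concentrate in addition to dam's milk was given before weaning to 8 heifers (CON), which were set against 8 heifers with only dam's milk in that period (NOCON). The first feeding period ran from birth to 6 months of age. All were females of the Parda de Montaña breed, all suckled, and all were biopsied at the close of their first lactation, so every array shows a gland that had been in milk. From 6 to 15 months the study also fed rations of 67% or 87% forage. The labels do not tell which heifer had which ration, so that factor was not compared. Each heifer gave 1 Affymetrix array, and values are log2 expression after RMA, which removes background, brings the arrays to a common scale and combines the probes of each probe set into 1 value.

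Over all arrays the values ran from 2.73 to 12.66, with array medians between 4.25 and 4.57. Arrays were marked as standing apart where their median correlation with the others was low, by more than 5 scaled median absolute deviations. These 5 arrays, called low-correlation arrays here, were NOCON 1 and NOCON 5 together with CON 2, CON 6 and CON 7. CON 7 stood farthest apart, with a median correlation of 0.866. Several results that rest on these arrays are given with and without them, and others with and without CON 7 alone. An array carries no read depth, and the 8 arrays per group limit the precision.

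The casein genes lie in 1 cluster, by the gene order of RefSeq's ARS-UCD2.0 assembly, which served for names and neighbours and not for coordinates. The order of its 8 protein-coding genes is CSN1S1, CSN2, HSTN, STATH, CSN1S2, PRR27, ODAM and CSN3, so 4 genes that are not caseins lie among the 4 that are. All 4 of them have a probe set on the array.

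The casein probe sets lay near the top of the measured scale in every heifer. CSN2 averaged 12.33 over 16 arrays with an SD of 0.0879 and lay between position 1 and position 6 of the 26773 values on each array. CSN1S1 averaged 12.05 (SD 0.132) and held positions 4 to 27. CSN3 averaged 11.96 (SD 0.12) at positions 6 to 26, and CSN1S2 averaged 11.84 (SD 0.0938) at positions 12 to 31. Probe sets differ in how strongly they bind their target, so these positions show how close each signal comes to the upper end of the scale and do not rank the caseins by amount of transcript. The mean distance from the highest value of the array was 0.171 for CSN2, 0.448 for CSN1S1, 0.541 for CSN3 and 0.661 for CSN1S2, all on the log2 scale. Signals this close to the upper end can be compressed, and saturation was not assessed because only RMA values were used.

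The casein signals varied little between heifers on this scale, where values near the top can be compressed. The highest and lowest of 16 arrays were 1.45-fold apart for CSN1S1, 1.36-fold for CSN3, 1.31-fold for CSN2 and 1.29-fold for CSN1S2. The median SD of all probe sets was 0.206. The SD of CSN2 exceeded that of 8.11% of all probe sets, that of CSN1S2 9.83%, that of CSN3 18.97% and that of CSN1S1 23.8%. Spread falls toward the top of the scale in general. The median SD was 0.12 for the 30 probe sets with means from 11.5 to 12, where CSN1S2 and CSN3 lie, and 0.104 for the 12 with means from 12 to 12.5, where CSN1S1 and CSN2 lie. By SD over all 16 arrays CSN1S1 varied most and CSN2 least, while the range was narrowest for CSN1S2. Without the 5 low-correlation arrays the SD was 0.136 for CSN1S1, 0.105 for CSN3, 0.0927 for CSN2 and 0.0472 for CSN1S2, so CSN1S2 then varied least.

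**Figure D1:**
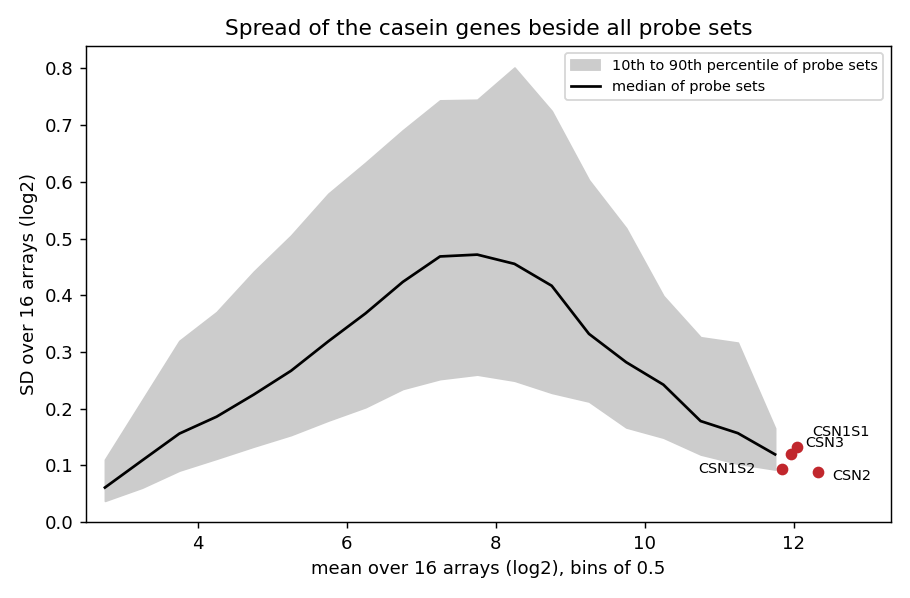
SD over 16 arrays (log2, y axis) against mean over 16 arrays (log2, x axis) for the casein genes (red points), with the median (line) and the 10th to 90th percentile (grey band) of all probe sets in bins of 0.5; bins with fewer than 20 probe sets are not drawn. The caseins lie at the far right. The last bin drawn, 11.5 to 12, holds CSN1S2 and CSN3 and has a median SD of 0.12. CSN1S1 and CSN2 lie beyond it, at means from 12 to 12.5, where the median SD of 12 probe sets was 0.104 and CSN2 lies at 0.0879.

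CON and NOCON heifers were compared to see whether concentrate fed before weaning was followed by a difference in casein expression at the end of the first lactation. No casein gene passed an adjusted p of 0.05 in the limma fit over all probe sets, in which 0.0598% of probe sets passed. At an unadjusted limma p under 0.05 stood 2 of the 4, CSN1S2 and CSN2, both with higher means in CON. Over all probe sets 3.57% met that condition in that direction. With median centring of the arrays the unadjusted p was 0.0221 for CSN1S2 and 0.167 for CSN2. The exact permutation test gave the same 2 genes an unadjusted p under 0.05, as it did 10.4% of all probe sets, and passed none after adjustment. CSN3 also had a higher mean in CON and CSN1S1 a slightly lower one, so 3 of 4 casein genes had higher means in CON, against 51.9% of all probe sets. The median log2 difference of the 4 was 0.08, beside 0.0058 over all probe sets.

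CSN2, the gene of beta-casein, ran from 12.31 to 12.47 in CON with a median of 12.37, against 12.08 to 12.33 in NOCON with a median of 12.30. Of the 8 CON arrays 7 lay above the highest NOCON array and CON 1 lay inside the NOCON range. NOCON 1, NOCON 5 and NOCON 8 lay above CON 1. The mean of the CON arrays was 12.38 ± 0.058 and that of the NOCON arrays 12.27 ± 0.0839 (SD, n = 8 each). This was a log2 difference of 0.10 (SE 0.05), or 1.07-fold with a 95% confidence interval of 1.01 to 1.15. The adjusted p with limma was 0.557. The exact permutation test over all 12870 regroupings gave p = 0.0014 (two-sided), and 0.195 after adjustment over all probe sets.

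Part of the CSN2 difference came from 1 NOCON heifer. NOCON 2, at 12.08, lay 0.19 below its group mean, while the other 7 NOCON arrays lay between 12.24 and 12.33. Without NOCON 2 the log2 difference was 0.08, the unadjusted limma p 0.0749, the exact p 0.00404 and the adjusted exact p 0.302. Without the 5 arrays of low correlation the difference was 0.11, the unadjusted limma p 0.0588, the exact p 0.013 and the adjusted exact p 0.495. On all arrays the unadjusted limma p of CSN2 was 0.0568 with trend and robust eBayes and 0.0884 with the filter on dim probe sets. With the replicate number as a block it was 0.07. It was 0.0144 with quantile normalization, 0.0361 with array weights and 0.0427 with the first principal component as covariate.

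CSN1S2, the gene of alpha-S2-casein, ran from 11.80 to 12.07 in CON with a median of 11.87, against 11.71 to 11.84 in NOCON with a median of 11.78. All 8 CON arrays lay above the NOCON median, 4 of them above the highest NOCON array, and the other 4 lay inside the NOCON range. The mean of the CON arrays was 11.895 ± 0.0966 and that of the NOCON arrays 11.78 ± 0.0423 (SD, n = 8 each). The log2 difference was 0.12 (SE 0.05), or 1.08-fold with a 95% confidence interval of 1.01 to 1.16, and the adjusted p with limma was 0.537. The exact permutation p was 0.00357 (two-sided) and 0.248 after adjustment over all probe sets.

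The CSN1S2 difference moved with the arrays that stand apart. The arrays with the highest CSN1S2 were CON 7 at 12.07 and CON 2 at 11.99, both of low correlation, followed by CON 4 at 11.92 and CON 6 at 11.91, of which CON 6 is also of low correlation. Without the 5 arrays of low correlation, CSN1S2 averaged 11.84 ± 0.047 in 5 CON arrays and 11.78 ± 0.0341 in 6 NOCON arrays. The log2 difference was then 0.05, with a limma p of 0.168 (adjusted 0.751) and an exact p of 0.0433. On all arrays the unadjusted limma p of CSN1S2 was 0.0615 with the filter on dim probe sets. With the replicate number as a block it was 0.06, and with trend and robust eBayes 0.0481. It was 0.00557 with quantile normalization, 0.0365 with array weights and 0.0246 with the first principal component as covariate.

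CSN3, the gene of kappa-casein, ran from 11.83 to 12.25 in CON with a median of 11.98, against 11.81 to 12.06 in NOCON with a median of 11.94. The groups overlapped over most of their range, and 2 CON arrays lay above the highest NOCON array. The mean of the CON arrays was 11.98 ± 0.148 and that of the NOCON arrays 11.93 ± 0.0853 (SD, n = 8 each), a log2 difference of 0.05 (SE 0.06, adjusted p = 0.777 with limma). In fold terms this was 1.04, with a 95% confidence interval of 0.946 to 1.14. Without CON 7, where CSN3 was highest, the difference was 0.02 (adjusted p = 0.944).

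CSN1S1, the gene of alpha-S1-casein, ran from 11.72 to 12.25 in CON with a median of 12.04, against 11.89 to 12.15 in NOCON with a median of 12.06. The CON arrays extended past the NOCON arrays at both ends. CON 5 held the lowest value, while CON 8 and CON 7 held the highest, both at 12.25. The mean of the CON arrays was 12.04 ± 0.177 and that of the NOCON arrays 12.06 ± 0.0784 (SD, n = 8 each), a log2 difference of -0.01 (SE 0.07, adjusted p = 0.961 with limma). The 95% confidence interval of the fold ran from 0.894 to 1.10. The sign turned without CON 5, where the log2 difference was 0.03, and also without CON 4 (0.0032) and without NOCON 1 (0.001).

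**Figure D2:**
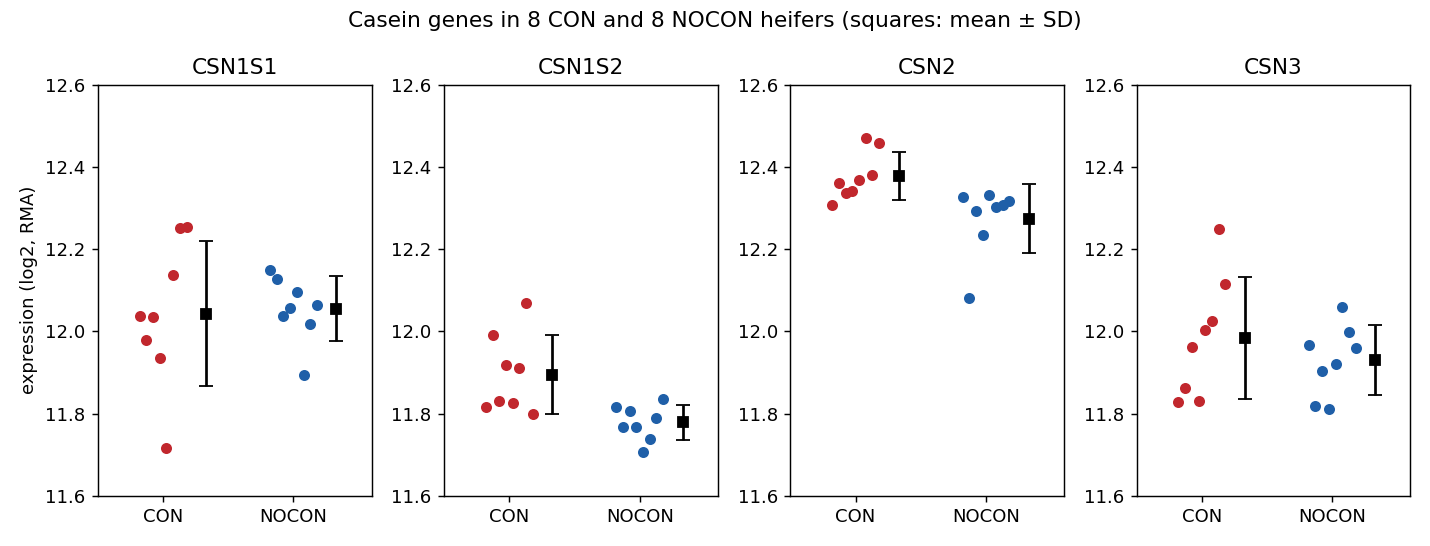
Expression (log2, y axis, not starting at 0) of each casein gene in 8 CON heifers (red) and 8 NOCON heifers (blue); squares and bars are mean ± SD. In the CSN2 panel 7 CON arrays lie above every NOCON array and NOCON 2 lies alone at 12.08, while the groups of CSN1S1 and CSN3 overlap widely.

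Differences between caseins within an array were compared as well, since a shift shared by all probe sets of an array drops out of them. The 6 pairs were tested with exact permutation tests (two-sided), adjusted over the 6 pairs, and none passed. CSN1S1 minus CSN1S2 averaged 0.149 ± 0.177 over the CON arrays and 0.277 ± 0.0793 over the NOCON arrays (SD, n = 8 each), lower by 0.13 in CON (log2 difference -0.13, exact p = 0.0841, adjusted p = 0.403). In CON, 7 of 8 arrays lay below the NOCON median. Of the 16 arrays left out in turn, CON 8 was the one without which a pair passed: this difference between groups was then -0.17 (adjusted p = 0.0457, exact test). Without the 5 low-correlation arrays it was -0.0907 (adjusted p = 0.539, exact test). CSN1S1 minus CSN2 was -0.335 ± 0.157 in CON and -0.219 ± 0.13 in NOCON (exact p = 0.134, adjusted p = 0.403). That difference between groups, -0.12 over all arrays, was -0.0707 without CON 5 and -0.145 without CON 7. For the other 4 pairs, the CON minus NOCON values were between -0.07 and 0.06, with adjusted exact p from 0.477 to 0.807.

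None of the 6 correlations between casein genes passed after adjustment on the deposited values of all 16 arrays, by r or by rho. CSN2 and CSN3 had the highest pairwise correlation over the 16 arrays, with r = 0.58 (permutation p = 0.0227, adjusted over the 6 pairs 0.136) and rho = 0.59 (permutation p = 0.0176, adjusted 0.0529). Without the 2 arrays farthest from the CSN2 median, CON 6 and NOCON 2, r was 0.59 (n = 14, permutation p = 0.0329). Within CON the correlation was 0.58 (exact permutation p = 0.131, n = 8) and within NOCON 0.68 (exact permutation p = 0.0497, n = 8). The correlation was thus positive in both groups. With a further quantile normalization r over all arrays was 0.31 (permutation p = 0.239, adjusted 0.575).

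CSN1S2 and CSN2 had r = 0.41 (permutation p = 0.116, adjusted 0.346) and rho = 0.64 (permutation p = 0.0103, adjusted 0.0529). Within CON r was 0.01 (exact permutation p = 0.979, n = 8) and within NOCON 0.10 (exact permutation p = 0.807, n = 8). Without the 2 arrays farthest from the CSN1S2 median, CON 2 and CON 7, the pooled r was 0.44 (permutation p = 0.112, n = 14). The pooled relation of this pair was thus larger than that inside either group, where both genes had higher means in CON.

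The correlations of CSN1S1 with the other caseins were smaller and did not pass. Its r was 0.17 with CSN1S2, 0.10 with CSN2 and 0.32 with CSN3, with adjusted permutation p from 0.346 to 0.699 and rho of -0.02, 0.20 and 0.21 in the same order. Without CON 5 and CON 8, the arrays farthest from the CSN1S1 median, the 3 values of r were 0.30, 0.06 and 0.42. CSN1S1 and CSN3 had r = 0.58 within CON (exact permutation p = 0.129, n = 8) and r = -0.59 within NOCON (exact permutation p = 0.12, n = 8). The difference between these groups was not tested. CSN1S2 and CSN3 had r = 0.35 (permutation p = 0.187, adjusted 0.346) and -0.01 without CON 2 and CON 7, the arrays farthest from the CSN1S2 median (n = 14). It was -0.15 without CON 7 alone and 0.50 without CON 2 alone, so its sign rested on CON 7.

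**Figure D3:**
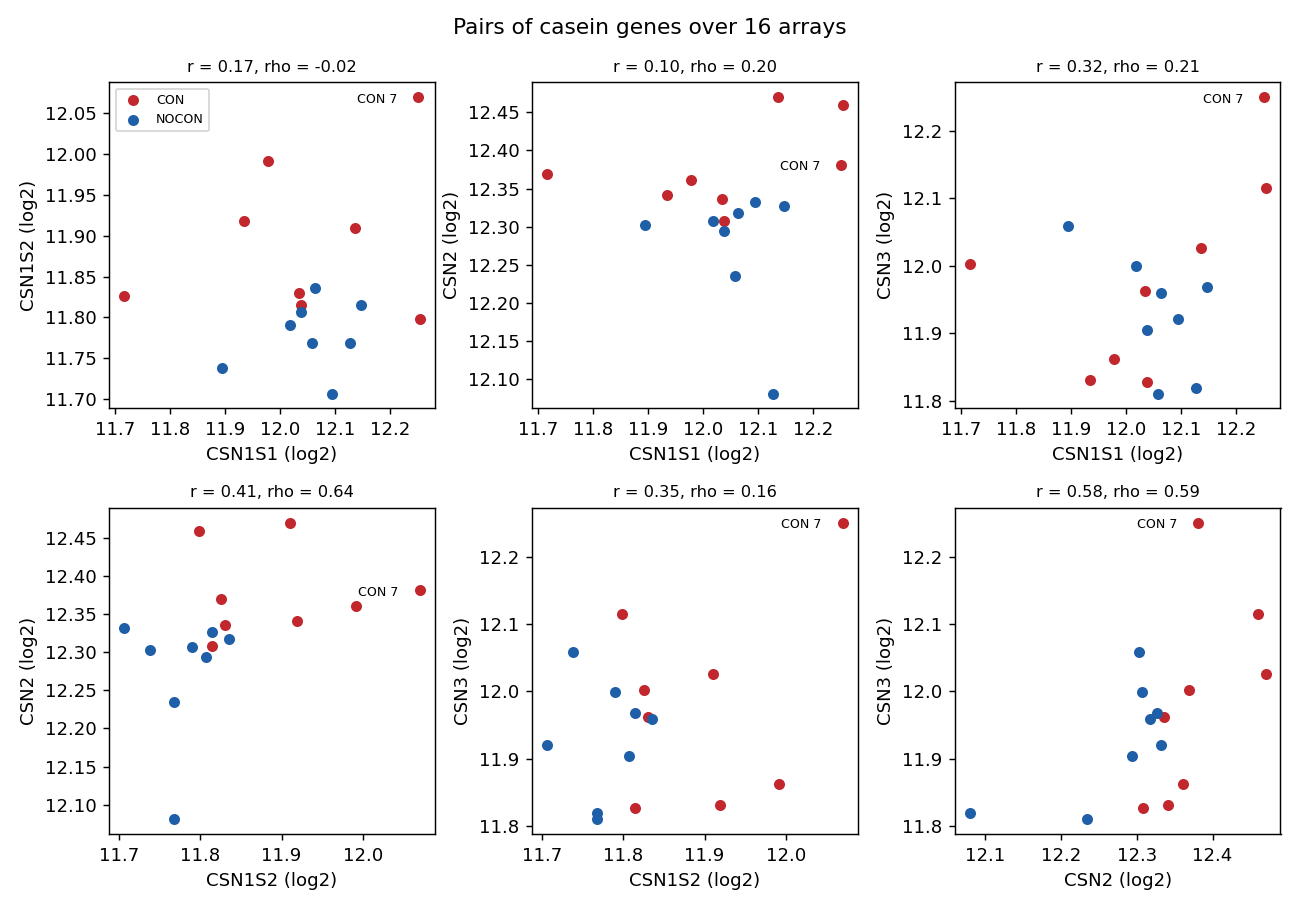
The 6 pairs of casein genes over 16 arrays (log2 on both axes), with CON arrays in red and NOCON arrays in blue and CON 7 named; Pearson's r and Spearman's rho stand above each panel. CSN2 and CSN3 have the highest r (0.58), and CSN1S1 has the lowest, with CSN2 (0.10) and CSN1S2 (0.17).

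Single heifers were high in several caseins at once. CON 7 held the highest value of CSN1S2 (12.07) and of CSN3 (12.25), and its CSN1S1 (12.25) was level with the highest, while its CSN2 (12.38) lay at the CON mean. CON 8 was high in CSN1S1 (12.25), CSN2 (12.46) and CSN3 (12.12) but had the lowest CSN1S2 of its group (11.80). CON 5 was lowest of all arrays in CSN1S1 (11.72) and near the middle of its group in CSN2 (12.37). NOCON 2 was lowest in CSN2 (12.08), and NOCON 4 lowest in CSN3 (11.81).

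**Figure D4:**
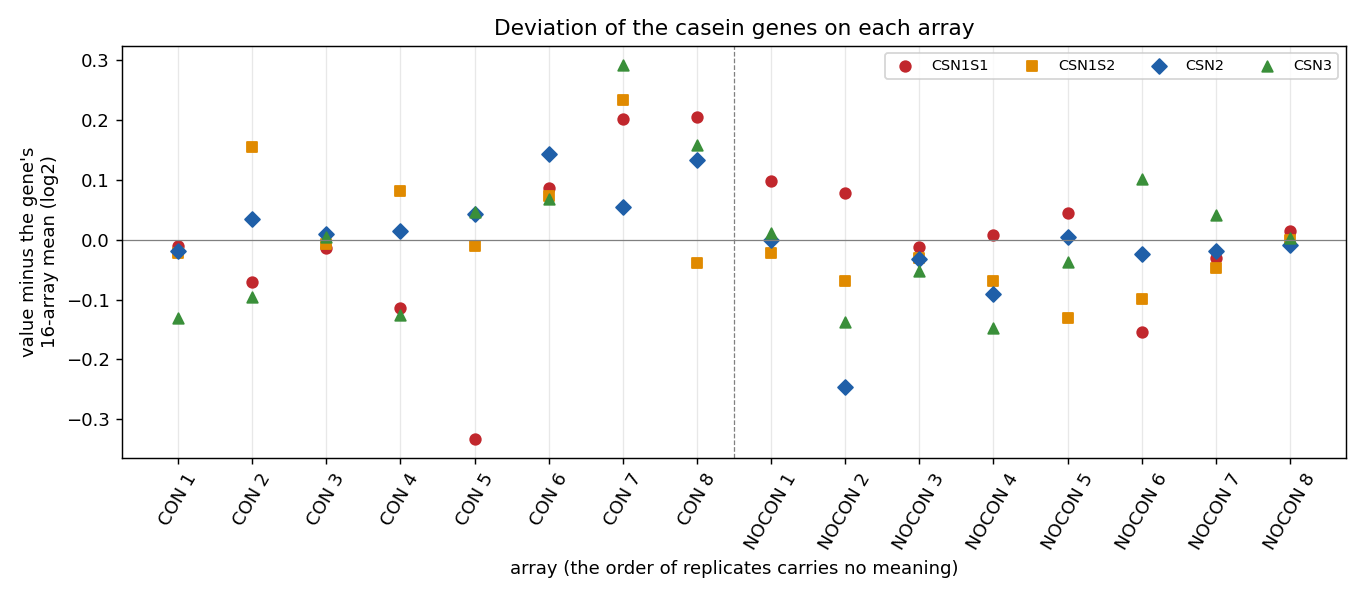
Value of each casein gene minus its mean over 16 arrays (log2, y axis) on each array (x axis; CON left of the dashed line, NOCON right of it). CSN1S1 drops in CON 5, CSN2 drops in NOCON 2, and CSN1S1, CSN1S2 and CSN3 are all high in CON 7.

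Luminal epithelial cells make casein, and the share of such cells in a needle biopsy is not labelled. In tissue samples, fewer cells of a type and less RNA per cell cannot be told apart. All 18 luminal epithelium markers, among them keratins and claudins, had a probe set, and 16 of them had lower means in CON and 2 higher (median log2 difference -0.13). Without CON 7, 12 were lower and 6 higher (median -0.0685). Without the 5 low-correlation arrays, 11 were lower and 7 higher (median -0.0258). The markers differed widely in level. AREG, ELF3 and KRT8 averaged 3.20, 4.01 and 4.25 in CON, in the dim range up to the array medians, while ELF5 averaged 11.26. The mean level of all 18 per array ran from 5.94 to 6.74 in CON and from 6.52 to 6.81 in NOCON. CON 7 was lowest at 5.94, and the other 15 arrays lay between 6.50 and 6.81. CON 7 also had the lowest mean of the myoepithelial markers (6.52, against 6.87 to 8.03 on the other 15 arrays) and of the endothelial markers (5.34, against 5.80 to 6.86). Its fibroblast markers were lowest too (6.51, against 6.60 to 7.24), while its T and NK cell markers were highest (4.296, against 4.03 to 4.291). The T and NK cell markers lay near the array medians, and CON 7 had the highest array median, 4.57. Values of CON 7 also spanned the narrowest interquartile range, 1.49 against 1.68 to 2.15 on the other arrays. What set CON 7 apart was not tested. The array with the lowest luminal marker level thus held the highest CSN1S2 and CSN3 values.

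Over the 16 arrays, CSN1S2 and the mean of the luminal markers had r = -0.74 (permutation p = 0.00293, adjusted over the 4 genes 0.0117) and rho = -0.49 (adjusted permutation p = 0.112). CSN3 had r = -0.70 (permutation p = 0.00624, adjusted 0.0125) and rho = -0.53 (adjusted permutation p = 0.112). Both relations rested on CON 7. Without it r was -0.44 for CSN1S2 (adjusted permutation p = 0.391) and -0.35 for CSN3 (adjusted permutation p = 0.394). Without the 2 arrays farthest from the median of each gene, r was -0.39 for CSN1S2 and -0.45 for CSN3 (permutation p = 0.172 and 0.108, n = 14). Without the 5 arrays of low correlation, r was 0.17 for CSN1S2 and -0.42 for CSN3. Median centring of the arrays brought both close to 0, to -0.04 and -0.14.

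CSN1S1 and CSN2 had weaker relations with the luminal markers, r = -0.36 (permutation p = 0.161, adjusted 0.215) and r = -0.26 (permutation p = 0.245, adjusted 0.245). For CSN1S1, r was -0.61 without CON 5 and CON 8 (permutation p = 0.025, n = 14) and 0.01 without CON 7. For CSN2 it was -0.35 without CON 6 and NOCON 2 (permutation p = 0.175, n = 14). No casein had a positive relation with the luminal markers on the deposited values of all arrays. RNA integrity was not measured here, and the part of CON 7 or of tissue make-up in the group differences was not tested.

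**Figure D5:**
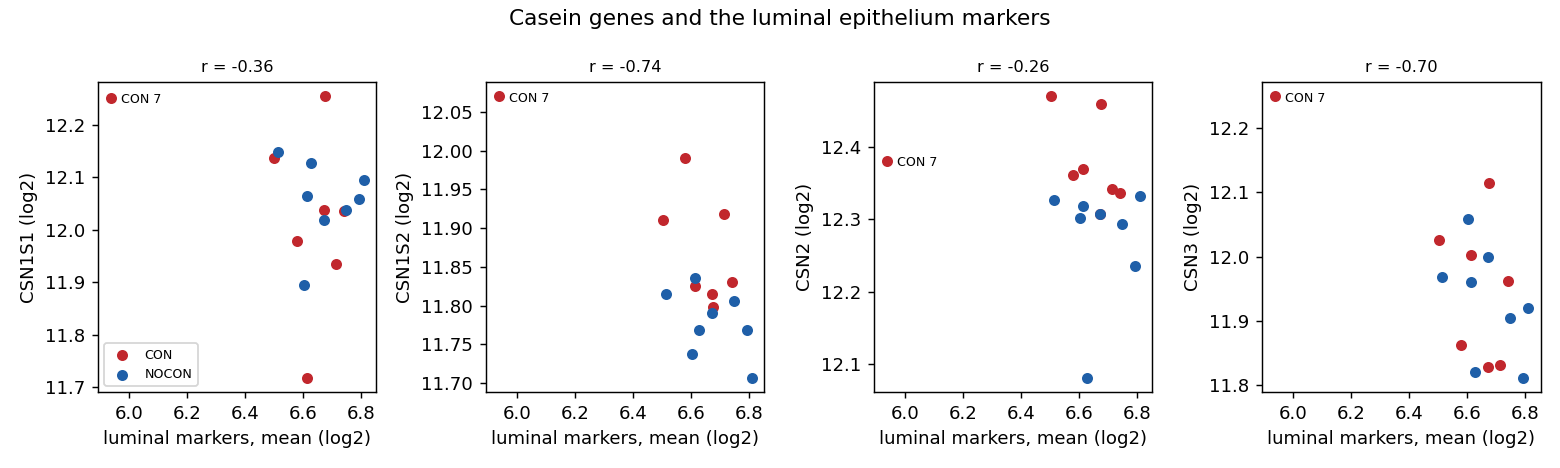
Expression of each casein gene (log2, y axis) against the mean of 18 luminal epithelium markers (log2, x axis) on 8 CON arrays (red) and 8 NOCON arrays (blue). CON 7 lies alone at the left, at 5.94, with high CSN1S1, CSN1S2 and CSN3.

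The genes whose pattern over the 16 arrays was most like that of each casein, after subtracting group means, were sought among 18431 genes. For CSN2 they were C20H5orf47 (r = 0.78), HCRT, the precursor of the neuropeptide orexin (0.77), the olfactory receptor gene OR5AN2C (0.76), the globin gene HBE4 (0.75) and the ribosomal protein gene RPL4 (0.74). All 5 had their lowest value in NOCON 2, the array in which CSN2 was lowest. RPL4 averaged 11.16, while the other 4 averaged between 3.24 and 4.25, in the dim range up to the array medians. CSN2 correlated with the whey protein genes PAEP and LALBA with r = 0.67 and 0.61, and 31 and 72 of the 18431 genes had a higher r with CSN2. With CSN3 its r was 0.57, which 163 genes exceeded. The r of CSN2 was 0.32 with the mucin-like milk glycoprotein gene GLYCAM1, 0.16 with CSN1S1 and 0.04 with CSN1S2, and 1909, 5156 and 8317 genes had a higher r. PAEP, LALBA and CSN3 were thus near the top of the CSN2 ranking, and GLYCAM1, CSN1S1 and CSN1S2 were not. The CSN2 ranking was not repeated without NOCON 2, so how far it rests on that array was not tested. With LALBA, PAEP and GLYCAM1 the r of CSN3 was 0.31, 0.29 and -0.28. That of CSN1S2 was 0.27, -0.16 and -0.25, and that of CSN1S1 0.19, -0.12 and -0.38. For each of these values at least 6127 genes had a higher r with the same casein.

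For CSN3 the most similar pattern was that of the ribosomal protein gene RPL23 (r = 0.897), whose mean was 11.82. The next were SIGLEC10, a lectin receptor gene (0.87), SAMD14 (0.84), BPIFA3 (0.83) and the DNA glycosylase gene SMUG1 (0.83). SIGLEC10, SAMD14 and BPIFA3 averaged 4.06, 3.89 and 3.64, below the array medians, and SMUG1 averaged 5.06. All 5 were highest in CON 7. Without the 5 arrays of low correlation r lay between 0.73 and 0.84, on arrays that had also served to choose these genes. CSN2 stood far down this ranking, with 1591 genes above it.

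For CSN1S2 the 5 most similar genes had r from 0.94 to 0.96: the microRNA genes MIR2401 and MIR2311, LOC614366, the keratin-associated protein gene KRTAP17-1 and LOC509513. All 5 were highest in CON 7, and their SD over 16 arrays, from 0.438 to 0.666, was well above the 0.0938 of CSN1S2. MIR2311, for example, reached 9.35 in CON 7 and 8.48 in CON 2 and averaged 7.60. Without the 5 arrays of low correlation, r lay between 0.83 and 0.91, again on arrays that had served to choose the genes. No other casein came near, the highest being CSN1S1 with r = 0.27, which 7500 genes exceeded.

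For CSN1S1 the most similar genes were APOBEC1, a cytidine deaminase gene (r = 0.78), IGSF10 (0.76), the transcription factor gene DMRTA1 (0.76), the adhesion molecule gene CADM2 (0.76) and USP50 (0.75). Their means lay between 3.40 and 3.97, below the array medians. All 5 were highest in CON 7. These rankings describe 16 arrays and carry no test.

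The neighbours of the caseins in the cluster had other levels and larger spreads. HSTN, which encodes the casein-related peptide histatherin, ran from 10.39 to 11.27 over all arrays and was highest in CON 7. It averaged 10.93 ± 0.23 in CON and 10.82 ± 0.218 in NOCON (log2 difference 0.11, SE 0.11, adjusted p = 0.744 with limma). STATH, the statherin gene, averaged 4.71 ± 0.557 in CON and 5.28 ± 0.852 in NOCON (log2 difference -0.57, SE 0.34, adjusted p = 0.612). PRR27, a proline-rich protein gene, spread widest, from 4.62 in CON 7 to 8.09, with 6.65 ± 1.26 in CON and 6.89 ± 1.18 in NOCON (adjusted p = 0.897 with limma). ODAM, an odontogenic ameloblast-associated protein gene, stayed below the array medians at 3.30 to 3.865. In CON 7, the array with the highest CSN1S2 and CSN3, HSTN and ODAM were highest and STATH and PRR27 lowest. Of the 102 measured genes in the 5 lists described below, CON 7 was the lowest array for 48 and the highest for 15.

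The genes around casein synthesis were described with 5 lists that hold 106 genes, 102 of them measured. No member passed with limma, as 0.0108% of all genes with a symbol did, and none had an unadjusted limma p under 0.05, while 7.92% of those genes did. Means were higher in CON for 39 members and lower for 63, against 48.9% higher over all genes. Without CON 7, 60 were higher and 42 lower, so the direction of these counts rested on that array. Among 29 lactogenic control genes, 22 had lower means in CON and 7 higher, with a median log2 difference of -0.11. CON 7 was the lowest CON array for 20 of the 29, and without it 15 had lower means and 14 higher (median -0.0033). The growth hormone receptor gene GHR (log2 difference 0.30, SE 0.18), the octamer-binding factor gene POU2F1 (0.11, SE 0.07) and the STAT5 target CISH, a feedback inhibitor of cytokine signalling (-0.26, SE 0.17), had the smallest p of that list, with adjusted p from 0.624 to 0.635. CON 7 was at 6.15 for the prolactin receptor gene PRLR, the lowest of all arrays, while the medians of PRLR were 8.51 in CON and 8.48 in NOCON.

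Among 27 genes of casein phosphorylation, glycosylation and calcium supply, 21 had lower means in CON and 6 higher, with a median of -0.08. CON 7 was the lowest CON array for 19 of them, and without it 15 had higher means and 12 lower (median 0.0168). The calcium sensor gene STIM1 (0.24, SE 0.15), the phosphate transporter gene SLC20A2 (0.14, SE 0.10) and the protein disulphide isomerase gene P4HB (-0.16, SE 0.11) came first, with adjusted p from 0.62 to 0.661. FAM20C, the kinase that phosphorylates caseins in the Golgi, averaged 7.60 ± 0.542 in CON and 7.68 ± 0.158 in NOCON (adjusted p = 0.891 with limma) and was lowest in CON 7 at 6.35. Among 12 measured genes of the casein cluster and the phosphoprotein family it belongs to, 10 had higher means in CON and 2 lower, with a median of 0.10. CON 7 was the highest of all arrays for 9 of the 12. Without it 8 were higher and 4 lower (median 0.0464), and without the 5 low-correlation arrays 5 were higher and 7 lower (median -0.0058). The dim tooth-matrix genes AMTN (0.25, SE 0.16) and DSPP (0.26, SE 0.17) were highest in CON 7 with 4.93 and 4.90, and with STATH they had the smallest p (adjusted p from 0.612 to 0.625 with limma).

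Among 17 other milk protein genes, 9 had higher means in CON and 8 lower, with a median of 0.0037, and without CON 7, 14 were higher and 3 lower (median 0.0587). The beta-lactoglobulin gene PAEP (-0.08, SE 0.05), the immunoglobulin receptor gene PIGR (0.15, SE 0.13) and the albumin gene ALB (0.08, SE 0.05) had the smallest p, with adjusted p from 0.62 to 0.697. Among 17 measured genes of the plasmin system and of proteases that act on casein, 7 had higher means in CON and 10 lower, with a median of -0.0075 (9 higher and 8 lower without CON 7). The urokinase gene PLAU (0.09, SE 0.07), the protease inhibitor gene SERPINB2 (0.18, SE 0.14) and the cathepsin gene CTSB (-0.23, SE 0.20) came first, with adjusted p from 0.657 to 0.689. The 8 cell type lists held 85 measured genes, of which 0 passed with limma. The 3 with an unadjusted p under 0.05, all with lower means in CON (5.27% of all genes with a symbol) and named for that p, were the luminal keratin gene KRT18 (-0.30, SE 0.11), the adipocyte gene CFD (-0.51, SE 0.16) and the fibroblast marker gene THY1 (-0.37, SE 0.17).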

How the data were processed

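Biotin-labelled cRNA from needle biopsies was measured on Affymetrix arrays, per the labels' protocols. The values are those the authors deposited, read as log2; the submitters' processing notes name GCOS and RMA. Versions, log base, chip definition and any filter were not given in the sources used. The labels describe 16 heifers with 1 array each, so p-values rest on the spread between heifers, biopsy and array included.

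Groups came from the sample titles. limma 3.58.1 (R 4.3.3; lmFit, eBayes) was fitted to all 26773 probe sets with no covariate, and p-values were Benjamini-Hochberg adjusted over all of them at a threshold of 0.05. Differences are CON minus NOCON. Exact permutation tests used all 12870 regroupings, and correlations over 16 arrays 100000 resamples. Symbols were updated through ARS-UCD2.0 gene IDs. Per gene the brightest probe set was used. The fit and the tests were tested on simulated data.

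Named are the 4 caseins, the 3 members of each of 5 lists with the smallest p, the 5 genes most like each casein, and, chosen after their values were seen, the genes between the caseins, PRLR, FAM20C and 3 cell type markers. Also named are LALBA, PAEP and GLYCAM1, in an unplanned comparison with each casein, and AREG, ELF3, KRT8 and ELF5 for their level. The members and lists were chosen with earlier results of these data known. The labels do not say whether same replicate numbers pair animals, so the main tests treated the arrays as unpaired. After subtracting group means, the correlation of same-numbered arrays ran from -0.427 to 0.292, which cannot settle the question. Alternatives were median centring, a further quantile normalization, trend and robust eBayes, array weights, a filter on dim probe sets (60% kept), a replicate block, the first principal component, and leaving out single arrays or the 5 of low correlation. The counts of list members without these arrays were added after seeing the data.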

Additional observations from a re-analysis of the deposited data

Results flagged for a closer look

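CSN2 in NOCON 2, at 12.08, lay far from the other 7 arrays of its group, with a gap to the next array of 0.615 of the group's range, where Dixon's critical value for 8 samples is 0.526. It was 1 of 8 combinations of a casein gene and a group that were examined, and chance marks about 1 in 20. The other 3 caseins of NOCON 2 were inside their group's range, at 12.13 for CSN1S1, 11.77 for CSN1S2 and 11.82 for CSN3.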

How the results depend on the processing

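No alternative moved a casein gene past the adjusted threshold between CON and NOCON, over 9 planned settings, 2 exact tests on fewer arrays chosen after seeing the data, and each array left out in turn. Over single arrays left out, the log2 difference ran from -0.0424 to 0.0345 for CSN1S1, from 0.09 to 0.13 for CSN1S2, from 0.08 to 0.11 for CSN2 and from 0.02 to 0.08 for CSN3. CSN1S1 turned to 0.0032 without CON 4, 0.0345 without CON 5 and 0.001 without NOCON 1. With array weights CSN3 differed by 0.00012 and CSN1S2 by 0.07. With the replicate number as a block the differences were as without it, -0.01, 0.12, 0.10 and 0.05, with adjusted p of 0.973, 0.684, 0.686 and 0.791 for CSN1S1, CSN1S2, CSN2 and CSN3, and the paired exact test passed no casein pair (lowest adjusted p 0.469). Each casein has 1 probe set, so a mean over probe sets was not run.

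For casein pairs, r turned to -0.0815 with median centring, -0.19 without the 5 low-correlation arrays and ranged from -0.14 to 0.27 with 1 array left out for CSN1S1 and CSN1S2. It turned to -0.22 with quantile normalization, -0.10 without those 5 and ranged from -0.0828 to 0.33 for CSN1S1 and CSN2. For CSN1S1 and CSN3 it was -0.0234 without those 5, and for CSN1S2 and CSN3 -0.0718 with median centring, -0.24 without those 5 and -0.15 to 0.50 with 1 array left out. CSN2 and CSN3 had 0.31 with quantile normalization and ranged from 0.51 to 0.63 with 1 array left out. With group means subtracted, their rho was 0.69 (adjusted permutation p = 0.0231) and r 0.57 (adjusted 0.139). For CSN1S2 and CSN2, rho was then 0.07 and r 0.04. With 1 array left out, the adjusted permutation p of rho ran from 0.0224 to 0.17 for CSN2 and CSN3. For CSN1S2 and CSN2 it ran from 0.0108 to 0.13. The difference CSN1S2 minus CSN2 was -0.0535 without those 5 and ranged from -0.0121 to 0.0387 with 1 array left out. CSN1S1 minus CSN1S2 ranged from -0.17 to -0.0918, and CSN1S1 minus CSN2 from -0.145 to -0.0707.

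Against the luminal markers, CSN1S1 turned to 0.15 with median centring and 0.28 without those 5, with a range of -0.49 to 0.0076 when 1 array was left out. CSN1S2 fell short of the threshold with median centring (-0.0413) and quantile normalization (-0.56), turned to 0.17 without those 5, and ranged from -0.80 to -0.44. CSN2 turned to 0.45, 0.0549 and 0.0169 with median centring, quantile normalization and without those 5. CSN3 fell short with median centring (-0.14) and without those 5 (-0.42), and ranged from -0.78 to -0.35. With quantile normalization CSN3 passed, with r = -0.76 (adjusted permutation p = 0.0024) and rho = -0.66 (adjusted permutation p = 0.0259). The cause of these changes was not tested. Compression near the top of the scale and the absence of detection calls limit all values.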
